A study of Mus musculus with 24 samples.

Results

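The antigen receptor loci are the 6 gene clusters from which B and T lymphocytes assemble their receptors. They were examined here in mouse blood progenitors with and without Utx. Peaks of every deposited list were kept when they lay wholly inside Igh (chr12:113258768-116009954), Igk (chr6:67555636-70726754), Igl (chr16:19026858-19260844), Tra/Trd (chr14:52427967-54224198), Trb (chr6:40891296-41558371) or Trg (chr13:19178040-19356476) of build mm10. Peaks that overlapped or touched were then merged within each assay. This gave 607 regions of 335089 in all lists, namely 131 of 58677 H3K4me1 regions, 392 of 197241 PU.1 regions and 84 of 79171 ATAC regions. All 607 are accounted for in the counts by locus, and no filter on low values was applied.

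Each locus is built from many variable (V) segments, short joining (J) segments, in some loci diversity (D) segments, and constant (C) exons. The RAG recombinase joins 1 of each kind in a developing lymphocyte, heavy chain before light chain in B cells, and the segments become accessible and take on active histone marks around the time of joining. Blood stem and progenitor cells carry the loci unrearranged. H3K4me1 is a histone mark of enhancers and primed chromatin, and PU.1 (Spi1) is an ETS family factor of myeloid and early B cells that binds a GGAA core and acts with IRF4 at the enhancers of the light chain genes. Utx (Kdm6a) removes methyl groups from histone H3 lysine 27 and works with the methyltransferases that place H3K4me1.

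All samples were C57BL/6 bone marrow cells depleted of lineage-positive cells with a kit, called HSPCs in the labels. H3K4me1 ChIP-seq covered 2 Utx KO and 2 Utx WT libraries, and PU.1 ChIP-seq covered 3 Utx KO and 3 Utx WT libraries. ATAC-seq, which maps open chromatin, used cells that all carried Cas9. Its set B had Utx KO cells with a Smarca4 guide RNA (gRNA), Utx KO cells with an empty vector, Utx WT cells with the Smarca4 gRNA and Utx WT cells with the empty vector. Its set A had Utx WT cells with a Chd4 gRNA and Utx WT cells with the empty vector. Each of these 6 ATAC groups had 2 libraries. Smarca4 encodes Brg1, the motor of the BAF remodelling complex, and Chd4 that of NuRD. The growth protocol describes 7 days in M3434 semi-solid medium, 5 days in liquid culture and ATAC-seq 6 days after transduction. It sits on the set A samples but is worded for Brg1 editing. A bulk gRNA culture can keep unedited cells, each target had 1 gRNA, the age and sex of the animals are not given, and nothing states from how many animals or cultures the replicates came. The p-values therefore measure spread between samples, which may be technical. With 2 libraries against 2 the smallest two-sided exact permutation p is 0.33, and with 3 against 3 it is 0.1, so no single value could pass 0.05.

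The ChIP lists held 43706 to 54654 H3K4me1 islands and 137850 to 171535 PU.1 islands, each with the authors' whole-number score, taken as the reads of the island in its own library. That meaning is inferred from the format. Summed scores, in units of 1000000, were 6.93 to 14.2 for H3K4me1 and 20.4 to 27.8 for PU.1. The ATAC lists held 24833 to 50927 peaks with positions only, so their depth is unknown. The lists hold no RNA, so loss of the targeted genes cannot be checked from them. Over Kdm6a, Smarca4 and Chd4 with 5 kb on either side, H3K4me1 regions numbered 7 and 7 in KO against 8 and 10 in WT, and PU.1 regions numbered 20, 21 and 22 in KO against 15, 17 and 16 in WT. Stem and progenitor markers (Kit, Meis1, Mecom, Cd34, Flt3) and myeloid markers (Spi1, Cebpa, Cebpe, Mpo, Elane, Csf1r) held islands of both assays in each genotype.

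A region is called gained when every library of the perturbed group and none of its controls held a peak there, lost in the reverse case, kept when all held one, and mixed otherwise. Most V segments are named in the annotation but have no promoter in the RefSeq table, which matched 29 genes inside the loci, mainly lncRNAs, trypsinogens and olfactory receptors. Promoters of 3 of the 29 overlapped a PU.1 region, and these are shown because they are the annotated starts at which PU.1 islands lay. They come from RefSeq, build GRCm38.p6, run 5′ to 3′ from 250 bases before to 50 after the annotated start, and are read on the strand of the gene. LOC108169192, a lncRNA between the V segments of Igk, lies on the minus strand at chr6:68880650-68880949. Its capitals mark the octamer ATTTGCAT, the reverse complement of ATGCAAAT, which is known from the promoters of immunoglobulin V segments.

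LOC108169192: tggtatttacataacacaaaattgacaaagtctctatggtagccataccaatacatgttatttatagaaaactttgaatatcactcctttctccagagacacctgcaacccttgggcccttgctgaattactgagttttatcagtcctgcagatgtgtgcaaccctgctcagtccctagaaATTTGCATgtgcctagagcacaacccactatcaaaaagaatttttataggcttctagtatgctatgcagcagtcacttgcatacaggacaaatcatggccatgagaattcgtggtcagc

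Prss2, a trypsinogen gene inside Trb, lies on the plus strand at chr6:41521526-41521825, and Olfr1509, an olfactory receptor gene at the V end of Tra/Trd, on the plus strand at chr14:52450143-52450442. Capitals in both mark CTTCCT, the reverse complement of AGGAAG, which holds the ETS core.

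Prss2: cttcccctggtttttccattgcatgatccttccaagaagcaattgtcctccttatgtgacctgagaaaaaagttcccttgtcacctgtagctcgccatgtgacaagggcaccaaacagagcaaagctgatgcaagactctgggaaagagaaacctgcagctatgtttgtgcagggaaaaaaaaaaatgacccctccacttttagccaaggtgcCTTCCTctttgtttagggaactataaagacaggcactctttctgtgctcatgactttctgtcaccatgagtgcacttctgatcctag

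Olfr1509: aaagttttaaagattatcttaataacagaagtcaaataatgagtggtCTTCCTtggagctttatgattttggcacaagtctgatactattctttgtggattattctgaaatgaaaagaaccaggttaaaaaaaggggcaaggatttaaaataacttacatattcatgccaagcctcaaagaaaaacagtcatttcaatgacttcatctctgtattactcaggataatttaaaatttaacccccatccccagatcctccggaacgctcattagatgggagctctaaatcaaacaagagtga

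The octamer of LOC108169192 spans chr6:68880761-68880768, 62 bases before the annotated start. A PU.1 region at chr6:68880801-68881199 overlapped this promoter but not the octamer itself. It was held by the 3 KO libraries (scores 56, 35 and 37) and by no WT library, and the highest-scoring gained H3K4me1 region of Igk began inside it. The Prss2 and Olfr1509 promoters lay in regions held by all 4 H3K4me1 and all 6 PU.1 libraries. Over both strands, ATGCAAAT stood in 570 of 32851 RefSeq promoters of this length (1.74%) and in 2 of the 29 inside the loci, LOC108169192 and Gm35545 at Igl. AGGAAG stood in 35.4% of all promoters and in 10 of the 29, of which 2 lay in a PU.1 region. The longer PU.1 motif GAGGAAGT stood in 3.20% of all promoters and in 0 of the 29. The words overlap, since GAGGAAGT contains AGGAAG, and a match is no evidence of binding.

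**Figure D1:**
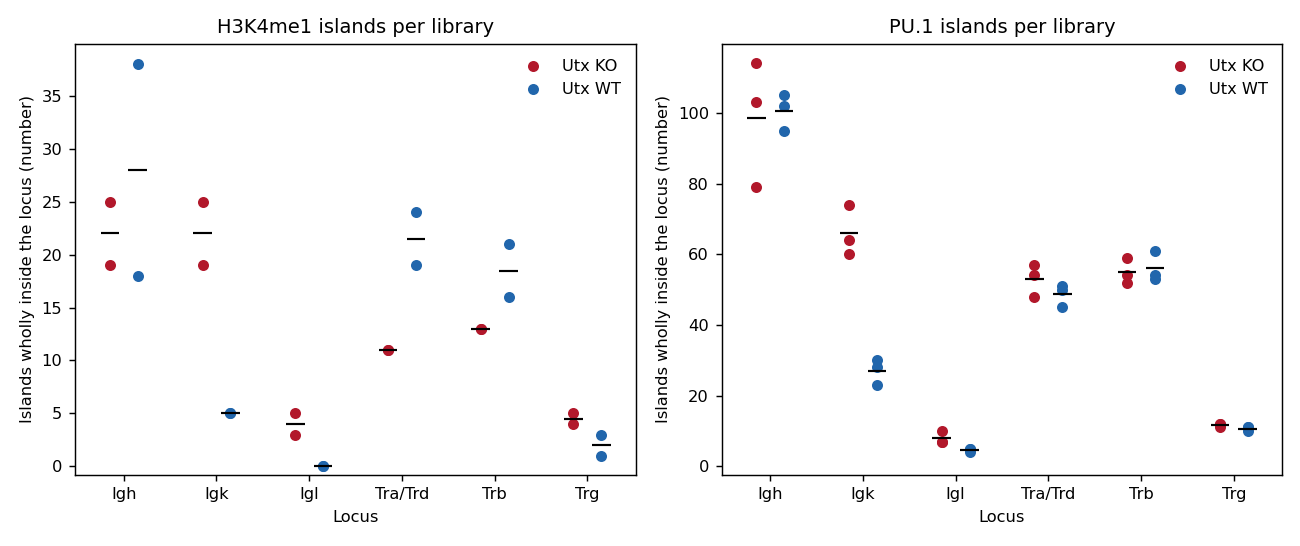
Islands per library in each locus, H3K4me1 on the left and PU.1 on the right, with Utx KO (red) left of Utx WT (blue). Each point is a library and each bar a group mean, and points with equal values lie on top of each other. At Igk the KO libraries held 19 and 25 H3K4me1 and 60 to 74 PU.1 islands, against 5 and 5 and 23 to 30 in WT.

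Over all 6 loci, H3K4me1 islands numbered 75 and 78 in Utx KO against 61 and 89 in Utx WT, and PU.1 islands 323, 257 and 297 in Utx KO against 244, 257 and 242 in Utx WT. These totals overlapped, and they hold loci that went opposite ways. Of the 131 H3K4me1 regions 19 were gained and 12 lost, where 2.15% of all 58677 H3K4me1 regions were gained and 10.9% lost. Of the 392 PU.1 regions 23 were gained and 7 lost, where 2.87% of all 197241 PU.1 regions were gained and 1.16% lost. Igk held 13 of the 19 gained H3K4me1 regions and 18 of the 23 gained PU.1 regions. Igh, Trb and Tra/Trd held all 12 lost H3K4me1 regions.

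**Figure D2:**
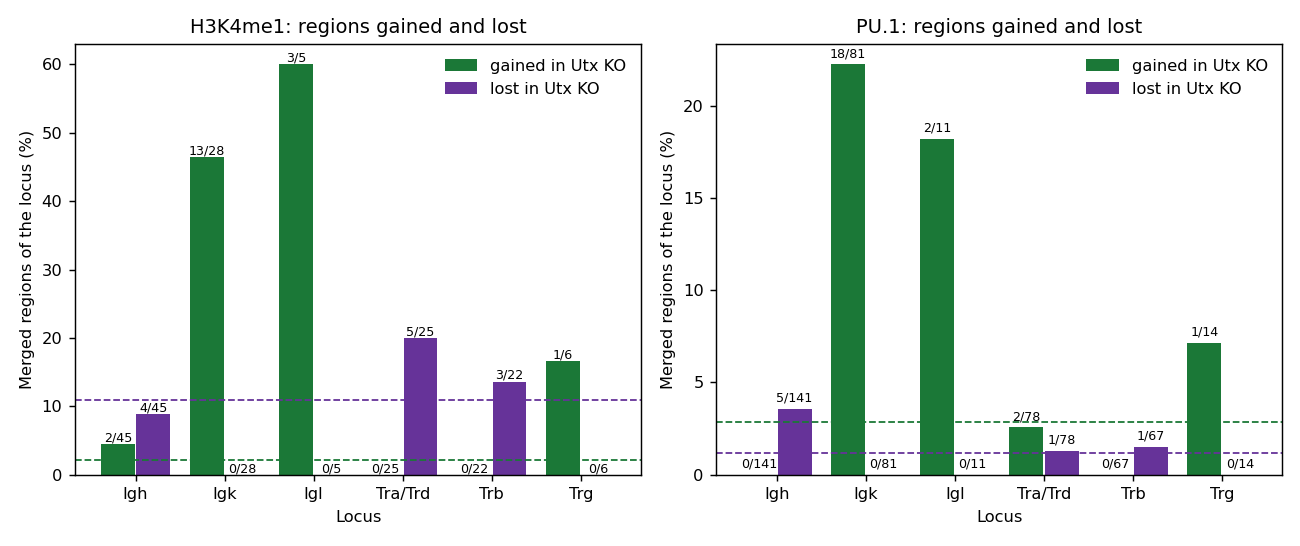
Share of the merged regions of each locus that was gained (green) or lost (purple) in Utx KO, for H3K4me1 on the left and PU.1 on the right, with the counts above the bars. Dashed lines give the shares over all regions of the assay, 2.15% gained and 10.9% lost for H3K4me1 and 2.87% gained and 1.16% lost for PU.1.

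Igk encodes the kappa light chain, and its 162 annotated V segments and V pseudogenes stretch over some megabases on one side of the J segments and Igkc. In Utx KO cells H3K4me1 islands lay across these V segments where the WT lists held almost none. H3K4me1 islands inside Igk numbered 19 and 25 in KO against 5 and 5 in WT. They covered 51.8 and 84.4 kb in KO against 5.20 and 11.2 kb in WT. Both KO libraries lay above both WT libraries, with a ratio of means of 4.40 in number and 8.31 in covered length (22.0 ± 4.24 against 5.00 ± 0.00 islands, SD, n = 2 each, exact permutation p = 0.33). As a share of all covered bases Igk took 0.0288% and 0.0373% in KO against 0.00258% and 0.00394% in WT, a ratio of 10.1. The list with the highest summed score was that of WT replicate 2, and it held 5 islands in Igk.

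Of the 28 merged H3K4me1 regions of Igk, 13 were gained (46.4%, against 2.15% over all regions), 0 were lost and 3 were kept. Set out along the locus, 4 gained regions lay 623 to 715 kb from Igkc and 9 lay 1800 to 2709 kb from it. The stretches from 0 to 600 kb and from 800 to 1800 kb held 0 gained of 4 and 0 of 2 regions. These limits were set after the positions were seen. Of the 13 gained regions 6 overlapped a V segment or V pseudogene and 12 lay within 5 kb of one. Of the 12 mixed regions of Igk 6 overlapped one and 8 lay within 5 kb. For the 3 kept regions these counts were 0 and 1, so overlap with V segments did not set the gained regions apart from the mixed ones. The highest score belonged to chr6:68881001-68888199, 14602 bp from Igkv13-87 and beside the LOC108169192 promoter, with 143 and 244 in the KO libraries and no island in either WT library. It was also the only gained region of Igk farther than 5 kb from a V segment. Next came chr6:68436401-68441599 over Igkv15-103 (107 and 128) and chr6:68596201-68601199, 4369 bp from Igkv15-97 (100 and 145). Over the 13 gained regions scores ran from 29 to 244 with a median of 77. Their median rank within the list was the 26.4th percentile in KO replicate 1 and the 45.6th in KO replicate 2, so these islands were of low to middling score. V segments or V pseudogenes touched by an H3K4me1 island numbered 6 and 12 of 162 in KO against 0 and 0 in WT.

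**Figure D3:**
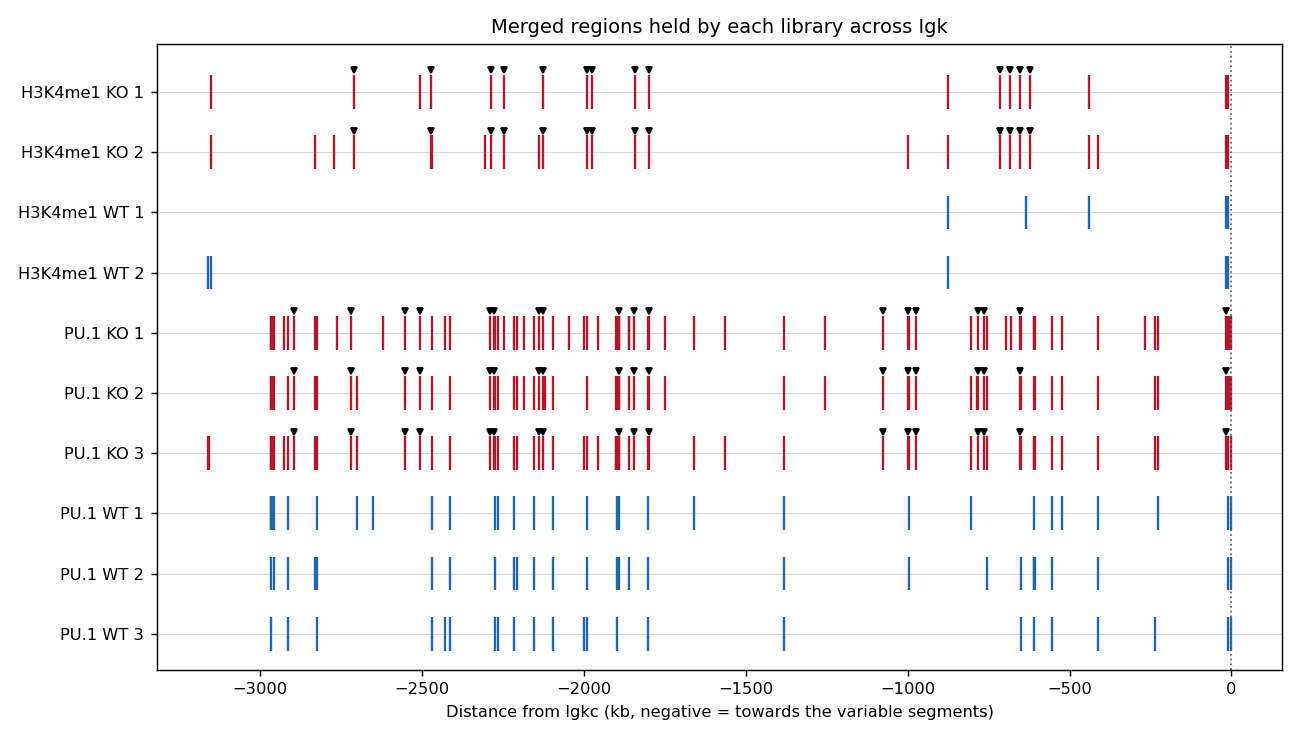
Position of each library's merged regions along Igk, as distance from Igkc in kb, with H3K4me1 libraries above PU.1 libraries and Utx KO (red) above Utx WT (blue). Triangles mark gained regions, which for H3K4me1 lay 623 to 715 kb and 1800 to 2709 kb from Igkc and for PU.1 17.0 to 2896 kb from it.

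PU.1 islands were also more numerous at Igk in KO. They numbered 74, 60 and 64 in KO against 30, 28 and 23 in WT and covered 32.7, 29.5 and 28.5 kb in KO against 14.4, 13.6 and 10.8 kb in WT. The groups did not overlap, with means of 66.0 ± 7.21 in KO and 27.0 ± 3.61 in WT (SD, n = 3 each), a ratio of 2.44 and an exact permutation p of 0.1, the smallest this design allows. The share of all covered bases was 2.37 times as high in KO as in WT. Of the 81 PU.1 regions of Igk 18 were gained (22.2%, against 2.87% over all regions), 0 were lost and 18 were kept. The 3 gained regions with the highest score in KO replicate 1 were chr6:70073601-70074199 over Igkv6-32 (123, 108 and 75 in KO), chr6:68926401-68926999, 3270 bp from Igkv13-85 (100, 96 and 76), and chr6:68437201-68437799 over Igkv15-103 (98, 87 and 84). All 3 lay inside gained H3K4me1 regions. In all, 5 of the 13 gained H3K4me1 regions overlapped a gained PU.1 region, 7 overlapped any PU.1 region and 0 overlapped an ATAC region. Gained PU.1 scores ran from 22 to 123 with a median of 49.5. V segments or V pseudogenes touched by a PU.1 island numbered 24, 20 and 19 of 162 in KO against 8, 9 and 6 in WT.

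Regions held by every library allow a comparison of score rather than of presence. The relative score is the score as parts of 1000000 of the summed score of its list. By this measure 11 of the 18 kept PU.1 regions of Igk were higher in every KO than in every WT library and 0 were lower, where 18.4% of 98601 kept PU.1 regions were higher and 22.9% lower. Their median ratio of KO to WT was 1.46, against 0.989 over all kept regions. The highest ratio was at chr6:70171201-70171999 over Igkv8-27, with scores of 256, 204 and 158 in KO against 37, 87 and 30 in WT. That is 9.21, 10.02 and 6.43 in relative score in KO against 1.71, 3.52 and 1.19 in WT, a ratio of 4.0 with no overlap. At Igkv8-30 the scores were 227, 197 and 202 in KO against 155, 141 and 107 in WT. At Igkv8-21 the groups overlapped, with 303, 289 and 258 in KO against 329, 288 and 229 in WT. V segments of 1 family are near copies, and how the authors treated reads that map to several copies is not given, so the split of reads among such segments is uncertain.

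The J side of Igk carries its known control elements, Cer and Sis between the V and J segments and an enhancer in the intron between J and Igkc. H3K4me1 was kept between the V and J segments in both genotypes. No H3K4me1 region wholly inside the locus lay between J and Igkc. Each H3K4me1 library also held 1 island across an edge of Igk, which was not counted. The region chr6:70708601-70711199 had scores of 67 and 76 in KO against 37 and 78 in WT, and chr6:70713401-70718799 had 139 and 145 in KO against 41 and 161 in WT. ATAC peaks at chr6:70709257-70709955 and chr6:70714267-70714693 lay inside these regions and were found in 11 of 12 ATAC libraries each, all but Chd4 gRNA replicate 2. A PU.1 region at chr6:70709201-70709999 coincided with the first of them and was gained, with 64, 59 and 50 in KO and no island in WT. The PU.1 region chr6:70725401-70726599, which reached into Igkc, was kept. It was higher in relative score in every KO library, with a ratio of 1.37. The other kept H3K4me1 region, chr6:69849801-69851799, lay 6621 bp from Igkv12-41 and had 308 and 163 in KO against 218 and 178 in WT. Of the 3 kept regions 2 were higher in relative score in every KO library (38.6% of 26944 kept H3K4me1 regions were higher and 19.6% lower).

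The Igk calls depended on which islands were counted. With the upper 50% of each list by score, 2 H3K4me1 and 4 PU.1 regions were gained at Igk, and 1 of the 18 gained PU.1 regions was among these 4. With lists trimmed to equal length, 14 H3K4me1 and 13 PU.1 regions were gained. Without H3K4me1 KO replicate 1 the H3K4me1 count was 20. The flanks of Igk, together as long as the locus, did not share the gain: 1 of 134 H3K4me1 regions there was gained and 15 were lost, and 14 of 417 PU.1 regions were gained and 9 lost. Flank islands numbered 103 and 97 for H3K4me1 in KO against 114 and 124 in WT.

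Markers of the B lineage were higher in KO for H3K4me1, but not for summed PU.1 score or ATAC. All 7 marker genes (Cd79a, Cd79b, Ebf1, Pax5, Vpreb1, Igll1 and Blnk) held an H3K4me1 island in every library, so none was at 0. Their summed relative score was 651 and 907 in KO against 456 and 429 in WT (median ratio over all kept regions 1.13). Of their 23 H3K4me1 regions 3 were gained (13.0%, against 2.15% over all regions), at Ebf1 and Blnk, and 0 lost. The summed relative PU.1 score of the same genes was 407, 399 and 378 in KO against 418, 398 and 387 in WT and overlapped. Of their 68 PU.1 regions 3 were gained, at Ebf1 and Pax5, and 1 lost, at Blnk (4.41% and 1.47%, against 2.87% and 1.16% over all regions). With the empty vector, 3 of their 16 ATAC regions were lost in KO, at Cd79a and Blnk, and 0 gained (18.8% lost, against 11.3% over all regions). Stem and progenitor markers went the other way for H3K4me1, at a summed relative score of 560 and 606 in KO against 837 and 865 in WT, and 6 of their 35 regions were lost (17.1%, against 10.9% over all regions), at Kit, Meis1, Mecom and Flt3. Myeloid markers stood at 881 and 926 in KO against 773 and 752 in WT, with all 8 regions kept, and erythroid markers (Gata1, Klf1, Epor) at 143 and 119 in KO against 156 and 138 in WT, which overlapped. The part of these markers in the Igk result was not tested. In bulk samples a larger share of cells with the mark and more signal per cell cannot be told apart.

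Igl, the lambda light chain locus, has only 3 V segments in mice. It held 3 and 5 H3K4me1 islands in KO against 0 and 0 in WT, covering 13.6 and 20.6 kb in KO. Of its 5 regions 3 were gained (60%, against 2.15% over all regions). The one over Iglv3, chr16:19237801-19247199, had 173 and 177 in KO. The others were chr16:19177401-19180799 (78 and 141) and chr16:19051201-19053999 (59 and 55). PU.1 islands numbered 7, 7 and 10 in KO against 4, 5 and 5 in WT, without overlap (exact permutation p = 0.1). Gained PU.1 regions were 2 of 11 (18.2%, against 2.87% over all regions), both of low score. They were chr16:19066001-19066199 (28, 26 and 24) and chr16:19083801-19084399, 618 bp from Iglv1 (25, 41 and 23). Both calls were lost when lists were trimmed to equal length. PU.1 islands were present in both genotypes at the 2 larger gained H3K4me1 regions. At chr16:19245401-19246399, beside Iglv3, its scores were 393, 324 and 335 in KO against 233, 280 and 253 in WT, higher in relative score in every KO library. At chr16:19178801-19180199 they were 305, 196 and 189 in KO against 175, 225 and 189 in WT and overlapped. No ATAC library held a peak in Igl.

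Igh encodes the heavy chain, which is joined before the light chains, and its enhancer Eμ lies in the intron between the J segments and Ighm. Its island numbers overlapped between genotypes, while the summed relative score of its kept H3K4me1 regions was higher in KO. H3K4me1 islands numbered 25 and 19 in KO against 18 and 38 in WT, and PU.1 islands 114, 79 and 103 in KO against 95, 102 and 105 in WT. Of 45 H3K4me1 regions 2 were gained and 4 lost (4.44% and 8.89%, against 2.15% and 10.9% over all regions). The gained ones were chr12:113319201-113323799, 2742 bp from Ighg1 (51 and 102 in KO), and chr12:114180401-114185799, 3534 bp from Ighv14-4 (67 and 106). The lost ones lay 2353 bp from Ighe (52 and 71 in WT) and over Ighv1-67 (49 and 62), Ighv1-70 (30 and 43) and Ighv1-85 (52 and 96). Without H3K4me1 WT replicate 1 the lost regions of Igh numbered 16. Of 9 kept H3K4me1 regions 5 were higher and 1 lower in relative score in every KO library. Among all 26944 kept H3K4me1 regions 38.6% were higher and 19.6% lower. The 9 regions had a median ratio of 1.19, near the 1.13 over all kept regions. Their summed relative score was 198 and 180.3 in KO against 132 and 138 in WT. Of this the region from Ighm over the J segments alone gave 97.0 and 83.4 in KO against 63.6 and 54.7 in WT.

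PU.1 was lower over Igh in KO. Of 141 PU.1 regions 0 were gained and 5 lost (3.55%), where 2.87% of all PU.1 regions were gained and 1.16% lost. The lost ones lay over Ighv8-2 (45, 33 and 40 in WT) and Ighv1-9 (99, 80 and 87), 709 bp from Ighv1-47 (54, 55 and 48), 280 bp from Ighv1-85 (34, 47 and 34) and 4336 bp from Ighd (52, 58 and 35). Of 64 kept PU.1 regions 26 were lower and 4 higher in relative score in every KO library. Among all kept PU.1 regions 22.9% were lower and 18.4% higher. The median ratio at Igh was 0.814, against 0.989 over all kept PU.1 regions. The share of all PU.1-covered bases that lay in Igh was 0.0471%, 0.0421% and 0.0443% in KO against 0.0501%, 0.0524% and 0.0566% in WT, without overlap (exact permutation p = 0.1). The region near Ighv1-85 was lost in both assays, the only such pair in the 6 loci.

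The J to Ighm intron was marked, bound and open throughout. H3K4me1 at chr12:113419201-113432599, from Ighm over all J segments, scored 757 and 720 in KO against 441 and 777 in WT, or a relative score of 97.0 and 83.4 in KO against 63.6 and 54.7 in WT. PU.1 at chr12:113423201-113428799 scored 819, 762 and 718 in KO against 626, 734 and 668 in WT. An ATAC peak at chr12:113423803-113425890 was present in all 12 libraries. Both ChIP regions had the highest score of their assay in Igh in KO replicate 1. Over Ighv8-4, H3K4me1 at chr12:115021001-115026799 scored 239 and 214 in KO against 62 and 203 in WT, and 30.6 and 24.8 in relative score in KO against 8.95 and 14.3 in WT. Over Ighv15-2 PU.1 scored 565, 375 and 403 in KO against 491, 574 and 574 in WT, which is lower in relative score in every KO library.

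Trb encodes the T-cell receptor beta chain and also holds a run of trypsinogen genes. Here H3K4me1 was lower in KO. Islands numbered 13 and 13 in KO against 16 and 21 in WT and covered 34.2 and 49.8 kb in KO against 65.6 and 104.6 kb in WT, a ratio of means of 0.493 with no overlap (exact permutation p = 0.33). The share of the summed score was 0.0157% and 0.0135% in KO against 0.0254% and 0.0286% in WT. Of 22 regions 3 were lost (13.6%), near the 10.9% over all regions, and 0 gained (2.15% over all regions). The lost ones covered Trbv16 (62 and 79 in WT), Trbv18 and Trbv19 (97 and 182) and, at chr6:41540201-41544599, Trbd2 with the Trbj2 segments (93 and 176). Without H3K4me1 WT replicate 1 the count of lost regions was 8. The flanks of Trb, together as long as the locus, were also lower in KO. They held 6 and 5 H3K4me1 islands in KO against 9 and 13 in WT, and 3 of their 12 regions were lost and 0 gained. The lower H3K4me1 was therefore not confined to Trb. V segments or V pseudogenes touched by an H3K4me1 island numbered 5 and 9 of 35 in KO against 14 and 20 in WT.

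Of the 7 kept H3K4me1 regions of Trb, 5 were lower and 0 higher in relative score in every KO library. Among all kept H3K4me1 regions 19.6% were lower and 38.6% higher. The median ratio at Trb was 0.507, against 1.13 over all kept H3K4me1 regions. The region over Trbv12-1 to Trbv13-2, chr6:41111001-41123199, had 70 and 101 in KO against 231 and 517 in WT, or 8.97 and 11.7 in relative score in KO against 33.3 and 36.4 in WT. Its neighbour chr6:41097801-41107399, over Trbv11, had 76 and 56 in KO against 190 and 390 in WT. The region at the trypsinogen genes, chr6:41521001-41528999 around Prss2, was an exception, with 215 and 63 in KO against 75 and 163 in WT, and these overlapped in relative score.

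**Figure D4:**
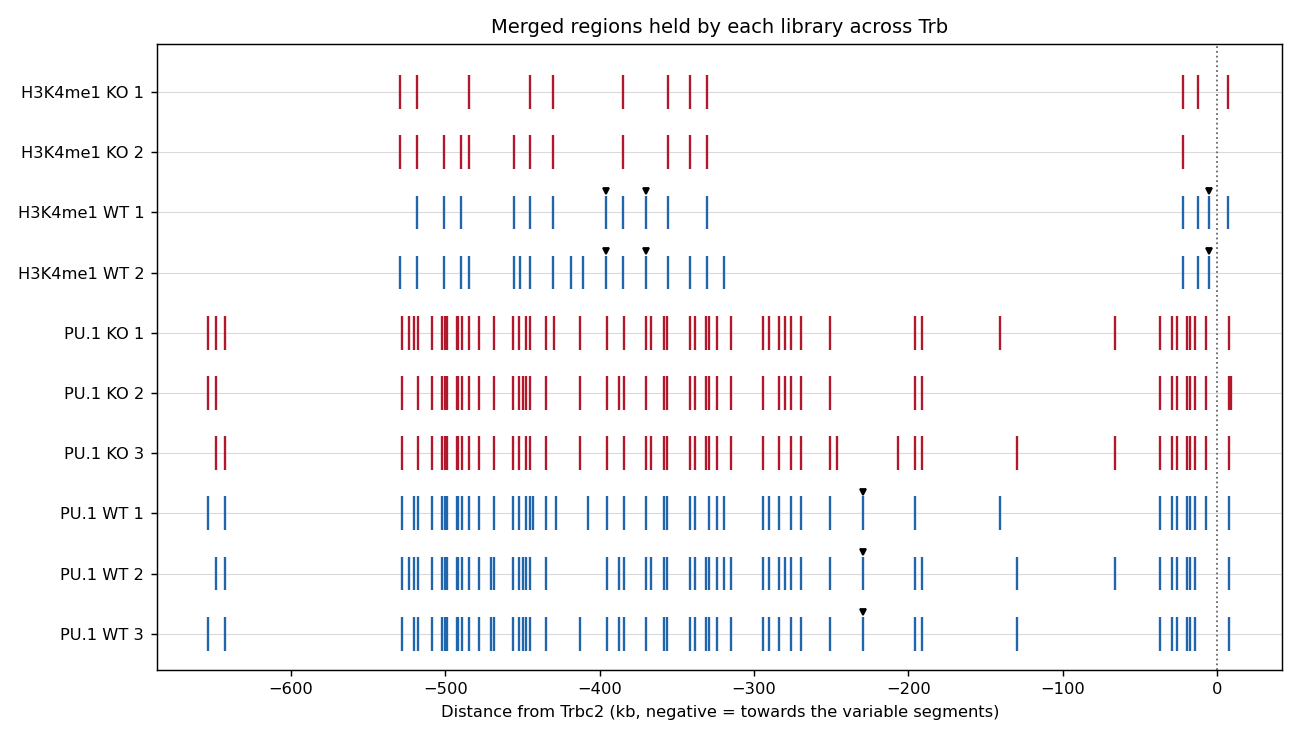
Position of each library's merged regions along Trb, as distance from Trbc2 in kb, with H3K4me1 libraries above PU.1 libraries and Utx KO (red) above Utx WT (blue). Triangles mark lost regions, 3 for H3K4me1 and 1 for PU.1; islands numbered 13 and 13 in KO against 16 and 21 in WT for H3K4me1.

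PU.1 islands at Trb overlapped between genotypes in number, while their covered length was lower in KO. They numbered 59, 52 and 54 in KO against 53, 61 and 54 in WT and covered 39.1, 38.3 and 38.1 kb in KO against 41.3, 49.9 and 47.7 kb in WT, without overlap (exact permutation p = 0.1). Of 67 regions 1 was lost, at chr6:41317601-41317999 (23, 31 and 27 in WT), and 0 gained, where 1.16% of all PU.1 regions were lost and 2.87% gained. Of 39 kept regions 17 were lower and 4 higher in relative score in every KO library. Among all kept PU.1 regions 22.9% were lower and 18.4% higher. The median ratio at Trb was 0.812, against 0.989 over all kept PU.1 regions. At Trbv2 the scores were 473, 354 and 367 in KO against 500, 538 and 485 in WT. The region 3′ of Trbc2, chr6:41554001-41555999, lies on the side where the enhancer Eβ is known to be. It scored 413, 330 and 330 in KO against 619, 555 and 497 in WT, a ratio of 0.629 in relative score without overlap. Among the 4 regions that were higher was the one over the Prss2 promoter, chr6:41520601-41521999, with a ratio of 1.48.

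Tra/Trd holds the alpha chain segments with the delta chain segments among them. H3K4me1 islands numbered 11 and 11 in KO against 19 and 24 in WT and covered 38.4 and 37.8 kb in KO against 44.2 and 87.8 kb in WT, without overlap (exact permutation p = 0.33). Of 25 regions 5 were lost (20%, against 10.9% over all regions) and 0 gained (2.15% over all regions). All 5 lay 70.0 to 229 kb from Trac, in the stretch that holds the delta segments and the first alpha J segments. They were 6549 bp from Trdv3 (29 and 97 in WT), 3205 bp from Trdv4 (65 and 191), 1269 bp from Trdd1 (38 and 91), over Trdv5 (72 and 57) and 606 bp from Traj61 (66 and 146). With lists trimmed to equal length 2 were lost, and without H3K4me1 WT replicate 1 the count was 10. The score did not follow the number of islands. Of 7 kept H3K4me1 regions 2 were higher and 2 lower in relative score in every KO library. Among all kept H3K4me1 regions 38.6% were higher and 19.6% lower. The 7 regions had a median ratio of 1.45, against 1.13 over all kept H3K4me1 regions. Their summed relative score was 157 and 102 in KO against 100.3 and 93.3 in WT. The share of the summed score in the locus was 0.0189% and 0.0120% in KO against 0.0187% and 0.0231% in WT and overlapped. The flanks of Tra/Trd, together as long as the locus, held 87 and 82 H3K4me1 islands in KO against 97 and 95 in WT. Of their 96 regions 13 were lost and 2 gained (10.9% and 2.15% over all regions).

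At Tra/Trd the PU.1 counts overlapped between genotypes. Its islands numbered 57, 48 and 54 in KO against 51, 50 and 45 in WT. Of 78 regions 2 were gained and 1 lost, where 2.87% of all PU.1 regions were gained and 1.16% lost. The gained ones were chr14:53824201-53824599 (24, 27 and 23 in KO) and chr14:54068401-54069599 (35, 70 and 45), which lay inside the lost H3K4me1 region near Trdv4. The lost one was chr14:54042001-54042999 (61, 67 and 34 in WT). Of 29 kept PU.1 regions 5 were higher and 4 lower in relative score in every KO library. Among all kept PU.1 regions 18.4% were higher and 22.9% lower. The highest ratio over the kept PU.1 regions of all 6 loci, 4.11, was at chr14:54216001-54216799 over Traj4, with 112, 94 and 131 in KO against 25, 29 and 27 in WT. The lowest, 0.321, was also in Tra/Trd, at chr14:53909601-53910599, 16379 bp from Trav22, with 54, 30 and 49 in KO against 153, 135 and 109 in WT. A broad region of much higher score, chr14:53799801-53806199, 440 bp from Trav17, had 586, 468 and 692 in KO against 146, 238 and 154 in WT, a ratio of 3.21 without overlap. The H3K4me1 region around it, chr14:53793801-53806399, had 413 and 204 in KO against 112 and 371 in WT and overlapped in relative score. At the Olfr1509 promoter shown above, PU.1 had 694, 597 and 657 in KO against 645, 652 and 688 in WT.

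Trg, the gamma chain locus, had few regions. H3K4me1 islands numbered 4 and 5 in KO against 3 and 1 in WT and PU.1 islands 12, 11 and 12 in KO against 11, 11 and 10 in WT. Gained were 1 of 6 H3K4me1 regions, chr13:19300601-19301799 (35 and 36 in KO), and 1 of 14 PU.1 regions, over Trgv3 (32, 32 and 31), both of low score. The shares gained over all regions were 2.15% for H3K4me1 and 2.87% for PU.1. At Trgv6 PU.1 had 488, 430 and 465 in KO against 439, 463 and 470 in WT.

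Overlaps between the assays were counted over all loci. Of 26 kept H3K4me1 regions 21 overlapped any PU.1 region and 19 an ATAC region. Of 19 gained ones 9 overlapped any PU.1 region and 0 an ATAC region. Of 12 lost ones 9 overlapped any PU.1 region and 2 an ATAC region. Igk and Igl, with 13 and 3 of the gained regions, held only 7 and 0 ATAC regions, so locus and status cannot be told apart here. Of the 84 ATAC regions 52 overlapped a PU.1 region, 55 an H3K4me1 region and 42 both. ChIP and ATAC cells differ, since the ATAC cells carried Cas9 and a vector.

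Open chromatin at these loci was sparse, with 12 to 46 peaks per library and, after merging, 30 regions in Igh, 7 in Igk, 0 in Igl, 13 in Tra/Trd, 30 in Trb and 4 in Trg. The comparison of Utx KO with Utx WT shares its empty-vector libraries with the Smarca4 gRNA comparisons, so these are not independent. With the empty vector, ATAC peaks in the loci numbered 32 and 34 in Utx KO against 44 and 46 in Utx WT and covered 13.3 and 14.04 kb in KO against 18.0 and 23.1 kb in WT, without overlap (exact permutation p = 0.33). Of 58 regions 7 were lost and 1 gained, where 11.3% of 58467 regions were lost and 1.93% gained, so these shares were near those of all regions. The whole lists also differed, with 40477 and 41024 peaks in KO against 50845 and 50927 in WT. Lost peaks lay over Ighv8-4 (widths 296 and 444 bp in WT), Trdv4 (622 and 727 bp) and Trbv24 (291 and 223 bp), and at 4 places between segments, nearest to Ighv5-15, Trav21-dv12, Trbv1 and Trgv6. The gained one lay 1640 bp from Ighv15-2 (396 and 299 bp in KO). At Igk peaks numbered 2 and 3 in KO against 2 and 3 in WT, and no ATAC library of any group held a peak over an Igk V segment.

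The Smarca4 gRNA went with fewer peaks in both genotypes. In Utx KO cells peaks numbered 22 and 16 with the gRNA against 32 and 34 with the empty vector and covered 9.16 and 7.36 kb with the gRNA against 13.3 and 14.04 kb, without overlap (exact permutation p = 0.33). Of 41 regions 6 were lost and 0 gained, where 8.43% of 46260 regions were lost and 0.277% gained. The lost ones lay over Trbv23 (308 and 283 bp with the empty vector) and the pseudogene Trbv28 (200 and 308 bp), 1735 bp from Trbv26, 123 bp from Trdv5, 3546 bp from Ighv1-46 and 1640 bp from Ighv15-2. With lists trimmed to equal length 0 were lost. In Utx WT cells peaks numbered 29 and 43 with the gRNA against 44 and 46 with the empty vector and covered 13.6 and 19.4 kb with the gRNA against 18.0 and 23.1 kb, which overlapped. Of 61 regions 3 were lost and 0 gained, where 5.96% of 59101 regions were lost and 0.866% gained. The lost ones lay over Traj15 (246 and 219 bp with the empty vector), 1396 bp from Trbv14 and 1555 bp from Trav21-dv12. Same-numbered libraries gave changes of −4.14 and −6.68 kb in KO and of −4.41 and −3.69 kb in WT. The difference between genotypes was −1.37 kb (exact permutation p = 0.667, and p = 1 without pairing libraries by number). The labels give a gRNA library and an empty-vector library the same number, but do not state that the 2 came from the same cells. The gained KO peak 1640 bp from Ighv15-2 is the same region as the one lost there with the gRNA, and both calls rest on the same KO empty-vector libraries.

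The length of the whole lists moved with these counts. In Utx KO the lists held 35975 and 29930 peaks with the Smarca4 gRNA against 40477 and 41024 with the empty vector, and the loci took 0.0384% and 0.0377% of covered bases with the gRNA against 0.0516% and 0.0548%. In Utx WT the lists held 42015 and 46191 peaks with the gRNA against 50845 and 50927 with the empty vector. B-lineage markers with a peak numbered 5 and 5 of 7 with the gRNA against 6 and 6 with the empty vector in Utx KO, where Igll1 had no peak with the gRNA and Cd79b had none in either group. T-lineage markers with a peak numbered 4 and 4 of 8 with the gRNA against 6 and 6 with the empty vector in Utx WT. By region, B-lineage markers lost 1 of 12 in Utx KO and 0 of 17 in Utx WT, and T-lineage markers 1 of 8 and 3 of 11. Stem and progenitor markers lost 4 of 67 and 6 of 77, myeloid markers 1 of 14 and 0 of 19, and erythroid markers 1 of 9 and 1 of 9. The shares lost over all regions were 8.43% in Utx KO and 5.96% in Utx WT. The part of list length and markers in the ATAC counts was not tested.

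**Figure D5:**
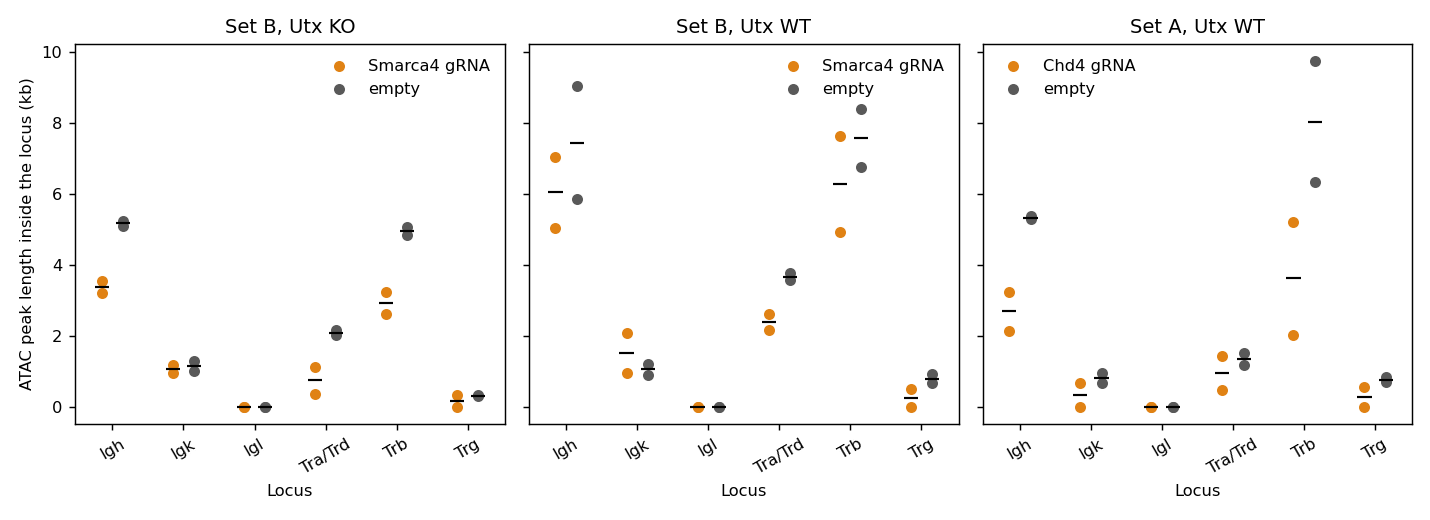
ATAC peak length inside each locus in kb, for set B Utx KO cells (left), set B Utx WT cells (middle) and set A Utx WT cells (right), with gRNA libraries (orange) left of empty-vector libraries (grey). Points are libraries and bars group means; over all loci Chd4 gRNA libraries covered 11.1 and 4.63 kb, against 18.2 and 14.4 kb with the empty vector.

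The Chd4 gRNA libraries of set A held 29 and 12 peaks against 42 and 36 with the empty vector and covered 11.1 and 4.63 kb against 18.2 and 14.4 kb, without overlap (exact permutation p = 0.33). Of 45 regions 6 were lost and 0 gained, where 13.7% of 50911 regions were lost and 0.1% gained. The lost ones lay over Ighv15-2 (214 and 223 bp with the empty vector), 939 bp from Ighv1-44, 1594 bp from Trbv1, 2902 bp from Trbv10, 6407 bp from Trbd1 and 74414 bp from Trbv30. The whole lists held 34429 and 24833 peaks with the gRNA against 48687 and 41480 with the empty vector, and the part of this in the counts was not tested. T-lineage markers with a peak numbered 3 and 2 of 8 with the gRNA against 4 and 3 with the empty vector. By region, T-lineage markers lost 3 of 7, B-lineage markers 2 of 15, stem and progenitor markers 2 of 28, myeloid markers 4 of 38 and erythroid markers 0 of 6. Chd4 gRNA replicate 2 held 0 peaks at Igk and Trg, and without replicate 1 of that group 21 regions were lost. With lists trimmed to equal length 0 were lost.

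Several peaks were present whatever the genotype or gRNA. The peak in the J to Ighm intron had widths of 809 and 330 bp with the Chd4 gRNA against 1186 and 1118 bp with the empty vector of set A. It had 1079 and 1107 bp with the Smarca4 gRNA in Utx KO against 1034 and 1076 bp with the empty vector. In Utx WT it had 1331 and 1788 bp with the Smarca4 gRNA against 1601 and 2088 bp with the empty vector. It was narrower in both Chd4 gRNA libraries than in their controls. With the Smarca4 gRNA it was slightly wider in Utx KO, without overlap, and the widths overlapped in Utx WT. Peaks over Ighv1-47 and Trbv12-2 and beside Olfr1509 were likewise found in all 12 libraries.

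Genes of the recombination machinery, which act on all of these loci, held islands in both genotypes. The list holds Rag1 and Rag2 (the recombinase), Dntt (which adds bases at the joins), Dclre1c, Lig4, Xrcc4, Xrcc5, Xrcc6, Prkdc and Nhej1 (end joining). An H3K4me1 island was held by 10 and 10 of the 10 genes in KO against 8 and 10 in WT, Rag1 and Xrcc5 being those without one in WT replicate 1. Of 32 H3K4me1 regions 3 were gained, all at Xrcc5, and 5 lost, at Xrcc6, Prkdc and Nhej1, or 9.38% gained and 15.6% lost against 2.15% and 10.9% over all regions. Of 101 PU.1 regions 5 were gained (4.95%, against 2.87% over all regions), at Rag1, Lig4, Xrcc4, Xrcc5 and Nhej1, and 0 lost. At Rag1 PU.1 regions numbered 3, 3 and 3 in KO against 2, 2 and 2 in WT.

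The receptor partners (Cd79a, Cd79b, Igll1, Vpreb1, Vpreb3, Cd3d, Cd3e, Cd3g, Cd247 and Ptcra) are the signalling chains and surrogate chains that pair with the receptors. Their H3K4me1 regions numbered 14 and 13 in KO against 16 and 17 in WT. Their summed relative score was 584 and 654 in KO against 458 and 474 in WT (median ratio over all kept regions 1.13). Of the 18 regions 2 were lost (11.1%), near the 10.9% over all regions, and 0 gained. Of 50 PU.1 regions 2 were lost (4%, against 1.16% over all regions), at Cd3e and Cd247, and 0 gained. Cd3e, a signalling chain of the T-cell receptor, held 0, 0 and 0 PU.1 regions in KO against 2, 3 and 1 in WT. It held 0 and 0 ATAC regions in KO with the empty vector against 1 and 1 in WT, and 0 H3K4me1 regions in any library. Cd79a, Cd79b, Igll1 and Vpreb1 are also B-lineage markers here, and Cd3d, Cd3e and Cd3g T-lineage markers. Results of the 3 lists are therefore not independent.

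T-lineage markers were measured beside the H3K4me1 values of Trb and Tra/Trd. Of the 8 genes (Cd3d, Cd3e, Cd3g, Cd8a, Cd4, Lck, Bcl11b and Tcf7) 6 held an H3K4me1 island in every library, and Cd3e and Cd8a were at 0 in all 4. Their summed relative H3K4me1 score was 245 and 274 in KO against 221 and 212 in WT (median ratio over all kept regions 1.13). Of their 18 H3K4me1 regions 2 were lost (11.1%), near the 10.9% over all regions, and 1 was gained. Their summed relative PU.1 score was 111, 127 and 112 in KO against 127, 144 and 136 in WT. The part of these markers in the Trb and Tra/Trd results was not tested.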

How the data were processed

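Peak lists of 22 of the 24 samples were used, and the 2 input samples were not used here. Per the submitters' processing notes the tools were SICER, MACS2, Bowtie and Bowtie2 (MACS2 and Bowtie alone for set A) on build mm10, and their versions and roles are not given. How reads mapping to several places were treated is not given in the sources used here. The deposited ChIP lists give islands on a 200 bp grid with a score, a whole number not scaled for depth, whose role as a read count is inferred. The deposited ATAC lists give start and end only, so width was used and depth is unknown. Precision is limited by the number of libraries.

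Peaks wholly inside a locus were counted per library, and regions were merged and called over the whole genome with Python 3.11.15, numpy 2.4.6 and pandas 2.3.3 (figures: matplotlib 3.10.9). Differences of group means were tested by exact permutation of the libraries (two-sided, unadjusted, in 6 loci per assay). Planted changes on simulated lists were recovered in full, which checks the code only.

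Regions named are every gained and lost region where a locus held 6 or fewer of a direction, otherwise the 3 with the highest score in the lowest-numbered library, and per locus and assay the 3 held by most libraries; the Prss2, Traj4, Trav22, Igkv8-27 and Trbv12-1 to Trbv13-2 regions, where beyond this, and all region groupings by distance, were chosen after their values were seen. Genes belong to a region within 5 kb. Alternatives were lists of equal length, lists cut to the upper 50% by score or width, 1 bp overlap with a locus, 50% cover, each library left out and same-numbered libraries as pairs. The members, loci and gene lists were chosen with earlier results of these data known. Some list members are not reported here and were left out of the counts of their lists.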

Additional observations from a re-analysis of the deposited data

Results flagged for a closer look

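At Igk ATAC peaks covered 0.939 and 1.17 kb with the Smarca4 gRNA against 1.001 and 1.29 kb with the empty vector in Utx KO, and 0.95 and 2.08 kb with the gRNA against 0.902 and 1.199 kb with the empty vector in Utx WT. Taken by replicate number, both differences were below 0 in Utx KO and both above 0 in Utx WT, which drew attention to the result. The change with the gRNA in Utx KO minus that in Utx WT was −0.557 kb, and the difference was not tested. It rests on 1 library: without Smarca4 gRNA replicate 2 in Utx WT, a setting chosen after seeing the data, it was 0.0095 kb and the change in Utx WT was −0.101 kb. Whether same-numbered libraries are true pairs is not stated, so no conclusion is drawn from the agreement within pairs.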

How the results depend on the processing

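Of the values for whole comparisons under all alternatives, 191 stayed within the limits set, 36 moved beyond them and 9 changed sign; counting peaks that only touch a locus by 1 bp moved none of them. Values below are for all 6 loci together, KO against WT or gRNA against empty vector. With the upper 50% of each list, H3K4me1 lost 7 and gained 3 regions and covered length differed by −24.1 kb; PU.1 lost 4 and gained 10; ATAC in KO against WT lost 2 and gained 0; the Smarca4 gRNA in KO lost 1; and its effect on covered length differed between genotypes by 0.169 kb. With lists of equal length, H3K4me1 lost 6; PU.1 gained 14, with a covered length of −9.0 kb; ATAC in KO against WT gained 3; the Smarca4 gRNA in KO and the Chd4 gRNA lost 0 each, and the share of covered bases with the Chd4 gRNA differed by 0.00242 percentage points. With 50% cover, PU.1 lost 13 and ATAC in KO against WT gained 2. The cause of these changes was not tested, beyond fewer islands entering the first pair of settings.

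Leaving out 1 library at a time gave 16 to 35 lost and 22 to 30 gained H3K4me1 regions, 8 to 12 lost and 27 to 37 gained PU.1 regions, 9 to 16 lost and 1 to 4 gained ATAC regions in KO against WT, 6 to 9 lost and 0 to 6 gained with the Smarca4 gRNA in WT, 8 to 13 lost and 0 to 2 gained with it in KO, and 6 to 21 lost with the Chd4 gRNA. Fewer libraries make each call easier to meet. Covered length ranged from −62.3 to 66.3 kb for H3K4me1 and from −2.61 to 7.87 kb for PU.1, and the PU.1 share of summed score from −0.000906 to 0.00565 percentage points, so none of these totals has a settled sign. With same-numbered libraries as pairs (replicate block) the counts were those of the main analysis, 12 lost and 19 gained for H3K4me1. The calls do not use pairs, so this outcome was fixed in advance. Deviations of same-numbered libraries correlated at −0.0242 to 0.0317. In a group of 2 libraries the deviations are equal and opposite, so these values cannot decide whether the numbers pair the samples. Without this replicate block the genotype difference in the Smarca4 effect was −1.37 kb (exact permutation p = 1).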
